A study of Mus musculus with 11 samples.

Results

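Of the 27687 genes in the count table, 10 encode the abundant granule and cytosol proteins by which neutrophils are recognised, and these 10 were followed here across 11 mouse high-grade gliomas. The members were matched by gene symbol: Mpo, Elane, Prtn3 and Ctsg of the azurophil (primary) granules, Ltf, Camp, Ngp and Lcn2 of the specific (secondary) granules, and S100a8 and S100a9 of the cytosol. All 10 had enough counts to be among the 16241 genes tested.

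By their labels 9 tumours had Ezh2 knockdown and 2 were controls. All tumours grew from 1 kind of glioma-initiating cell, subventricular-zone neural stem cells of mice 7 days of age that carried the compound conditional alleles p53;Ink4a/Arf;Krasv12;LucR, recombined in culture with a lentivirus that expressed Cre from the CMV promoter. The cells then received FH1-tUTG-shEzh2, a doxycycline-inducible short hairpin against Ezh2, the H3K27 methyltransferase of Polycomb repressive complex 2, were sorted for GFP and were injected into the brains of NOD-SCID mice. The protocol gives doxycycline at 2 mg/ml with 1% sucrose for every tumour, while the design speaks of mice with and without the drug, so that whether the control mice drank it is not settled. NOD-SCID hosts lack functional B and T lymphocytes but keep granulocytes, monocytes and macrophages, and graft and host RNA of a tumour were counted together.

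Neutrophils make their granules in sequence in the bone marrow. The serine proteases and myeloperoxidase of the azurophil granules are transcribed in promyelocytes, the lactoferrin, cathelicidin and lipocalin of the specific granules in myelocytes, and most of these messages are low in the mature cell, which stores the proteins. S100A8 and S100A9 form the heterodimer calprotectin and are made at high level by neutrophils and by some monocytes. Several members are also made elsewhere: reactive astrocytes, macrophages and epithelia can make Lcn2, and mast cells can make Ctsg.

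The stretches just upstream of 4 members are shown because these 4 behaved differently: Ngp and Elane were lower in the knockdown tumours, Lcn2 was higher, and Prtn3, the neighbour of Elane, did not pass the test. Each is the 250 bases before the annotated start, 5′ to 3′ on the strand of the gene, from RefSeq on GRCm38.p6, in which all 10 members were matched. Capitals mark matches on either strand to a C/EBP pattern (TTGCNNAA) or to an ETS (PU.1-type) pattern (GAGGAA), the binding motifs of factors that drive granule genes in the marrow. No match overlapped another in these 4. Ngp lies at chr9:110419558-110419807 (plus strand), Lcn2 at chr2:32387740-32387989 (minus strand), Elane at chr10:79886062-79886311 (plus strand) and Prtn3 at chr10:79879417-79879666 (plus strand).
Ngp: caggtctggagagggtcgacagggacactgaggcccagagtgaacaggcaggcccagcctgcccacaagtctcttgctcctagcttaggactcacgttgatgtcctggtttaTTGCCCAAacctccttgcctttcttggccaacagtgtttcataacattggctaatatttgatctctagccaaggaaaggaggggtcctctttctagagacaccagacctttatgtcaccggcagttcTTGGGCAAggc
Lcn2: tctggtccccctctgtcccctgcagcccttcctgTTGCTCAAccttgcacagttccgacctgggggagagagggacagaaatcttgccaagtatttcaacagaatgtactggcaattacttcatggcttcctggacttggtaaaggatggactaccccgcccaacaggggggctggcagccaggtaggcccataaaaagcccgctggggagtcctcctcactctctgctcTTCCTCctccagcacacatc
Elane: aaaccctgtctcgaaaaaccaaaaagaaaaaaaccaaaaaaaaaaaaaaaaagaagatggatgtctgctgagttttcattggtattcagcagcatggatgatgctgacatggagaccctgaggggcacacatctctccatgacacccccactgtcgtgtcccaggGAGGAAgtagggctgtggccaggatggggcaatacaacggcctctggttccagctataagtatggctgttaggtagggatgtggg
Prtn3: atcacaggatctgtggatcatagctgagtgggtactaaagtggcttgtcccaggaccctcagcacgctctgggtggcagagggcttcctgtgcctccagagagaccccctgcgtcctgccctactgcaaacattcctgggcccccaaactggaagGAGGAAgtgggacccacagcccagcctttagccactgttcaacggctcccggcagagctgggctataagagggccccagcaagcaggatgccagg

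The Ngp window held the C/EBP pattern at 2 places, from -138 to -131 and from -11 to -4 counted from the start site. The Lcn2 window held it from -216 to -209, with an ETS pattern from -20 to -15. Elane and Prtn3 each held 1 ETS pattern, from -85 to -80 and from -95 to -90. Over all members, the C/EBP pattern was found in 4 of 10 windows (Lcn2, Ltf, Ngp and S100a9), against 9.56% of 32851 windows of the same length, and the ETS pattern in 7 of 10, against 23.3%. A TATA box written TATAAA was found in 2 of 10 (Ctsg and S100a8), against 12.4%. The ETS pattern stood before genes that fell (Elane), rose (Lcn2) and did not pass the test (Prtn3), and a match describes letters only.

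Libraries held between 11209233 and 18638382 counts, so that 3 counts, used here as the floor, were worth between 0.162 and 0.273 CPM, the counts scaled to a common library size by edgeR's TMM factors. Ezh2 itself stood at 45.3 and 52.7 CPM in the controls and between 7.27 and 30.4 CPM in the knockdown tumours, a log2 fold change of -1.59 ± 0.44 (SE; edgeR adjusted p = 0.023). With either control left out Ezh2 no longer passed, at -1.70 without the first (edgeR adjusted p = 0.11) and -1.48 without the other (adjusted p = 0.14). Knockdown tumours 3 and 9, at 30.4 and 30.1 CPM, kept the most Ezh2. Mitochondrial genes took between 3.43% and 13.5% of the counts of a library.

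Most of the granule and cytosol transcripts were lower in the knockdown tumours than in both controls, and Mpo, Elane and Ngp had at most 3 counts in any knockdown tumour. Of the 10 members, 7 were lower in the knockdown tumours (Ngp, Mpo, Elane, S100a9, Ltf, S100a8 and Camp), 1 was higher (Lcn2) and 2 did not pass the test (Prtn3 and Ctsg), by edgeR's quasi-likelihood test at an adjusted p under 0.05. Among all tested genes 13% were lower, 10.3% higher and 23.3% called in either direction. The median log2 fold change of the 10 was -4.33, against 0.07 over all tested genes. Mpo, Elane and Ngp passed the count filter only through the controls, where they were high. The members were also chosen with earlier results of these data known. This median, and the ranks of these 3 genes among all tested genes, are therefore a description only. So are the counts of members called, or lying wholly below or above the controls, beside the shares of all tested genes. In 7 members every knockdown tumour lay below both controls, which 13.8% of all tested genes did, and in 1 member every knockdown tumour lay above both, which 13.3% did. In bulk tumour RNA, fewer neutrophils and less of a message per cell cannot be told apart.

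**Figure D1:**
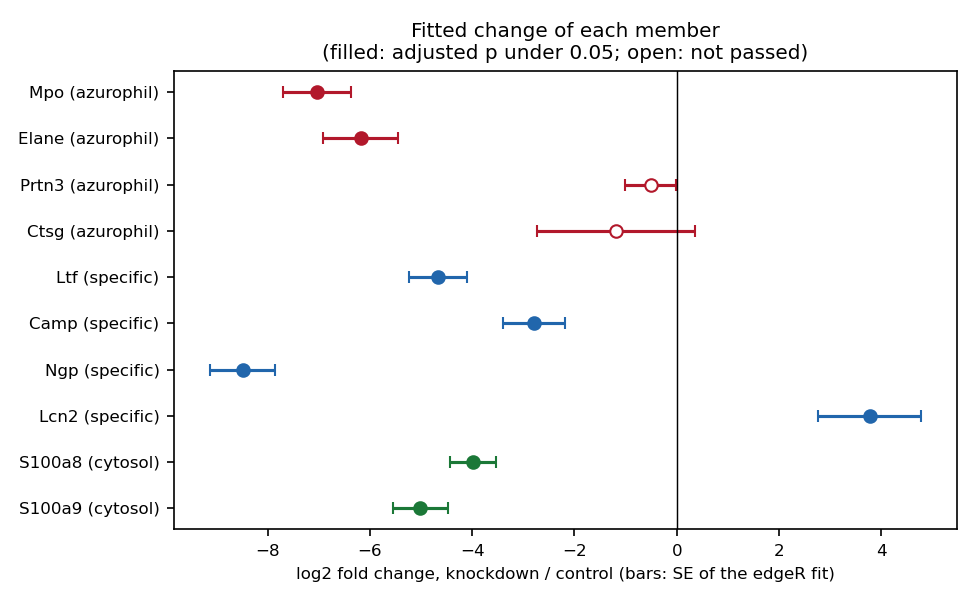
Fitted log2 fold change of each member, knockdown over control, on the x axis, with the SE of the edgeR fit as bars. Filled points passed an adjusted p under 0.05 and open points did not. The points run from -8.49 (Ngp) to 3.78 (Lcn2), and Prtn3 and Ctsg are the open ones.

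Among the azurophil genes, Mpo (chr11:87607083-87617915 on mm9), the peroxidase that makes hypochlorous acid, was measured at 12.5 CPM (163 counts) in control 1 and 3.51 CPM (56 counts) in control 2. The 9 knockdown tumours had between 0 and 3 counts each and 7 in all, with a median of 0 and a highest value of 0.162 CPM in tumour 8. Both controls thus lay far above every knockdown tumour, none of which rose above the floor of 3 counts. The fitted change of Mpo was a log2 fold change of -7.03 ± 0.67 (SE; edgeR adjusted p = 8.2e-05), the 3rd lowest of all tested genes, and the ratio of summed counts, control over knockdown, was 141 (95% exact binomial interval 67.3 to 355, counting error only). Without control 1 the change was -5.85 and without control 2 it was -7.68.

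Elane encodes neutrophil elastase. It had 9.85 CPM (128 counts) in control 1 and 1.57 CPM (25 counts) in control 2, and 9 counts in all over the knockdown tumours, where the median was 0.061 and the highest value 0.247 CPM, in tumour 2. Control 2, the lower control, was above every knockdown tumour. Its log2 fold change was -6.18 ± 0.74 (SE; edgeR adjusted p = 0.00031), the 5th lowest of all tested genes, and the summed ratio was 76.6 (39.3 to 171). Without control 1 the change was -4.33 and without control 2 it was -6.98.

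Prtn3 encodes proteinase 3, the close relative of elastase. It stood at 9.00 CPM (117 counts) in control 1 and 2.76 CPM (44 counts) in control 2, and ran from 1.53 CPM in knockdown tumour 9 through a median of 3.45 to 6.66 CPM in knockdown tumour 7. The groups overlapped, and control 2 lay below 8 of the 9 knockdown tumours. Its fitted log2 fold change was -0.51 ± 0.50 (SE; edgeR adjusted p = 0.48), and without control 1 it turned to 0.58.

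Elane and Prtn3 lie side by side on chromosome 10, at chr10:79349057-79350961 and chr10:79337221-79345919 on mm9, with 3.14 kb between them. In the knockdown tumours Prtn3 had 545 counts and Elane 9, while in the controls they had 161 and 153. Prtn3 was the member whose gene model overlaps another in the table: BC005764, at chr10:79323220-79337379, shares 159 bases with it. BC005764 was measured at 48.6 and 35.5 CPM in the controls and between 35.9 and 107 CPM in the knockdown tumours, highest in tumour 3. Its log2 fold change was 0.59 (edgeR adjusted p = 0.28). Over the 9 knockdown tumours it had r = 0.67 and rho = 0.47 with Prtn3, both given as a description. Whether reads were counted by strand is not given in the sources used here, and the part of BC005764 in the Prtn3 counts was not tested.

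Ctsg, cathepsin G, was measured at 3.39 CPM (44 counts) in control 1 and 0.877 CPM (14 counts) in control 2. It had 0 counts in knockdown tumours 1 to 4, 1 count in tumour 9, and 0.305, 0.451 and 1.36 CPM in tumours 7, 5 and 6. Tumour 8 alone had 110 counts, 5.93 CPM, which is more than either control. The log2 fold change of -1.18 ± 1.55 (SE; edgeR adjusted p = 0.61) became -2.98 (adjusted p = 0.078) without tumour 8 and 0.08 without control 1.

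Mast cells are a second textbook source of cathepsin G, and Ctsg lies at chr14:56718718-56721411 on mm9, in a cluster of mast cell protease genes, with Mcpt8 14.7 kb away. In tumour 8 the chymases Cma1 and Mcpt4 stood at 4.96 and 5.01 CPM and the carboxypeptidase Cpa3 at 3.93 CPM, each the highest value among the knockdown tumours, as were 10 of the 13 mast cell genes followed, while Mpo had 3 counts and Elane and Ngp 0. Gzmb, the granzyme B gene, which is not on the mast cell list, lies on the same chromosome at chr14:56877693-56881097. It too was highest in tumour 8, at 12.9 CPM (239 counts), and the next knockdown tumour, tumour 6, had 2.27 CPM. Over the 9 knockdown tumours Ctsg had r = 0.91 with Cma1, 0.93 with Mcpt4 0.90 with Cpa3 and 0.81 with Tpsb2, and rho of 0.55, 0.35, 0.30 and 0.44, with tumour 8 the highest in each. The summed level of the 13 genes was instead highest in tumour 9, at 77.1 CPM against 51.3 CPM in tumour 8, of which Kit, a receptor that other cells express too, made 73.1 and 11 CPM, and Ctsg had 1 count in tumour 9. In the controls the order was different: Cma1 was lower in control 1 (8.77 CPM) than in control 2 (22.4 CPM), whereas Ctsg was 3.86 times as high in control 1. The part of mast cells in the Ctsg values was not tested.

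**Figure D2:**
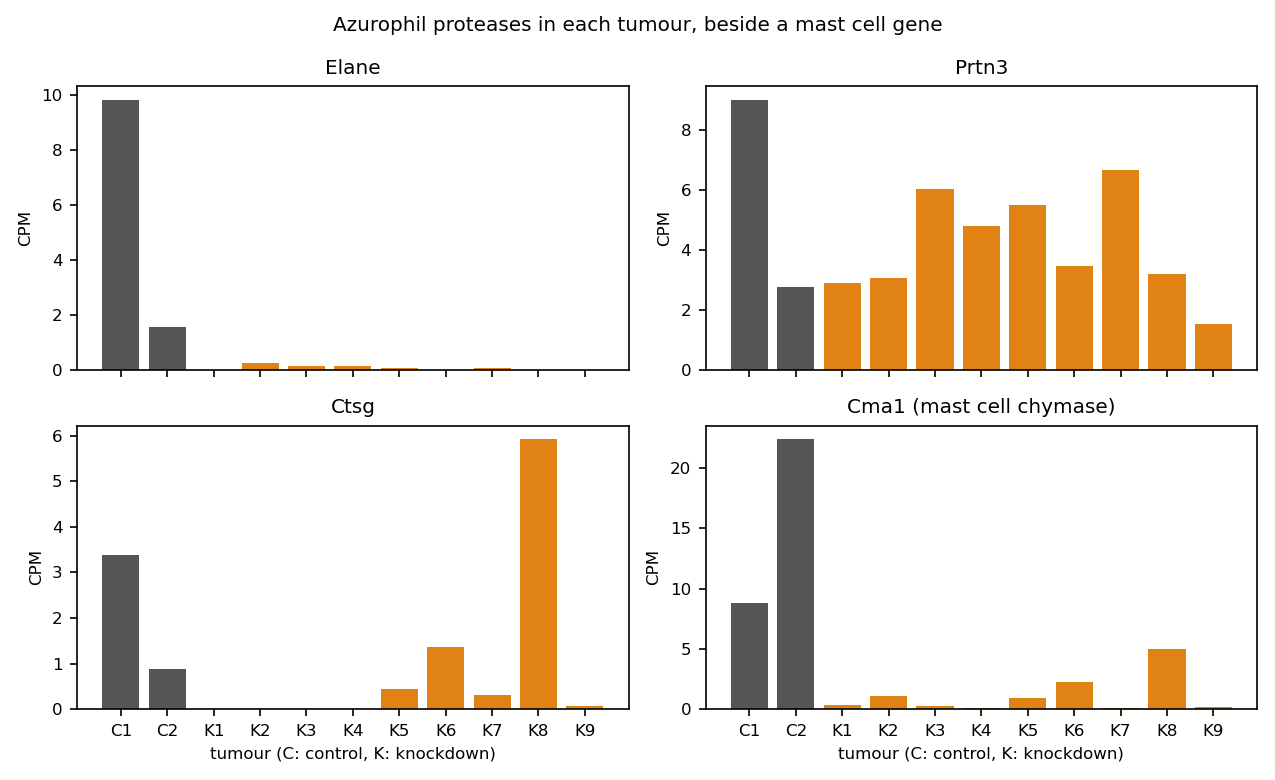
CPM of Elane, Prtn3, Ctsg and the mast cell chymase Cma1 on the y axes, 1 bar for each tumour (C, control; K, knockdown). Elane is near 0 in all 9 knockdown tumours, Prtn3 is present in every tumour, and Ctsg and Cma1 are highest among the knockdown tumours in tumour 8, at 5.93 and 4.96 CPM.

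Among the specific granule genes, Ngp, a cathelin-like neutrophil granule protein, had the largest fall of the 10. It stood at 41.5 CPM (539 counts) in control 1 and 9.21 CPM (147 counts) in control 2. Knockdown tumours 6 to 9 had 0 counts and tumours 1 to 5 between 1 and 3 counts, with a highest value of 0.207 CPM in tumour 3. No knockdown tumour rose above the floor, and the group means were 0.0632 ± 0.0731 CPM (SD, n = 9) and 25.3 ± 22.8 CPM (SD, n = 2). The log2 fold change was -8.49 ± 0.64 (SE; edgeR adjusted p = 2.7e-05), the 2nd lowest of all tested genes, with a summed ratio of 387 (195 to 899). Without control 1 the change was -7.03 and without control 2 it was -9.20.

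Ltf, lactoferrin, which binds iron, was measured at 31.5 and 5.76 CPM in the controls and from 0.265 CPM (tumour 9) through a median of 0.647 to 1.61 CPM (tumour 5) in the knockdown tumours. The groups did not overlap, and the log2 fold change was -4.68 ± 0.57 (SE; edgeR adjusted p = 0.00034), which was -2.99 without control 1 and -5.44 without control 2. Camp, the mouse cathelicidin, whose peptide disrupts bacterial membranes, was measured at 12.2 and 4.32 CPM in the controls and from 0.265 CPM (tumour 9) through a median of 1.10 to 2.12 CPM (tumour 5) in the knockdown tumours. The groups did not overlap here either, with a log2 fold change of -2.79 ± 0.61 (SE; edgeR adjusted p = 0.0080). Without control 1 the Camp change was -1.85 and no longer passed (adjusted p = 0.20). Ngp, Camp and Ltf lie on chromosome 9 (mm9) at chr9:110322254-110325514, chr9:109749889-109751970 and chr9:110921796-110945270, with 570 kb between Camp and Ngp and 596 kb between Ngp and Ltf.

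Lcn2 moved the other way. The gene, at chr2:32240153-32243317 on mm9, encodes lipocalin 2, which binds bacterial siderophores and so keeps iron from bacteria. It was measured at 23.0 CPM (299 counts) in control 1 and 9.27 CPM (148 counts) in control 2. The knockdown tumours ran from 37.0 CPM in tumour 6 through a median of 134 to 543 CPM in tumour 7, with 490 CPM in tumour 9. Every knockdown tumour lay above both controls, and tumours 7 and 9 stood apart from the other 7, which reached at most 235 CPM. The log2 fold change was 3.78 ± 1.01 (SE; edgeR adjusted p = 0.020), 13.7-fold higher. Without control 1 it was 4.57 (adjusted p = 0.093) and without control 2 it was 3.26 (adjusted p = 0.15), so that the call, unlike the direction, needed both controls. Without tumours 7 and 9, chosen after the values were seen, it was 3.06 (adjusted p = 0.0067).

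The calprotectin genes lie 22.6 kb apart on chromosome 3 (mm9), at chr3:90472993-90473956 (S100a8) and chr3:90496554-90499643 (S100a9). S100a8 was measured at 38.9 and 14.2 CPM in the controls and from 0.685 CPM (tumour 4) through a median of 1.56 to 3.23 CPM (tumour 8) in the knockdown tumours. S100a9 was measured at 59.5 and 23.0 CPM in the controls and from 0.206 CPM (tumour 4) through a median of 0.897 to 2.80 CPM (tumour 8) in the knockdown tumours. In both genes the groups were far apart, and the same tumours were lowest and highest. Fitted log2 fold changes were -3.98 ± 0.45 (SE; edgeR adjusted p = 0.00024) for S100a8 and -5.02 ± 0.53 (SE; edgeR adjusted p = 0.00016) for S100a9. Without control 1 they were -3.08 and -4.18.

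**Figure D3:**
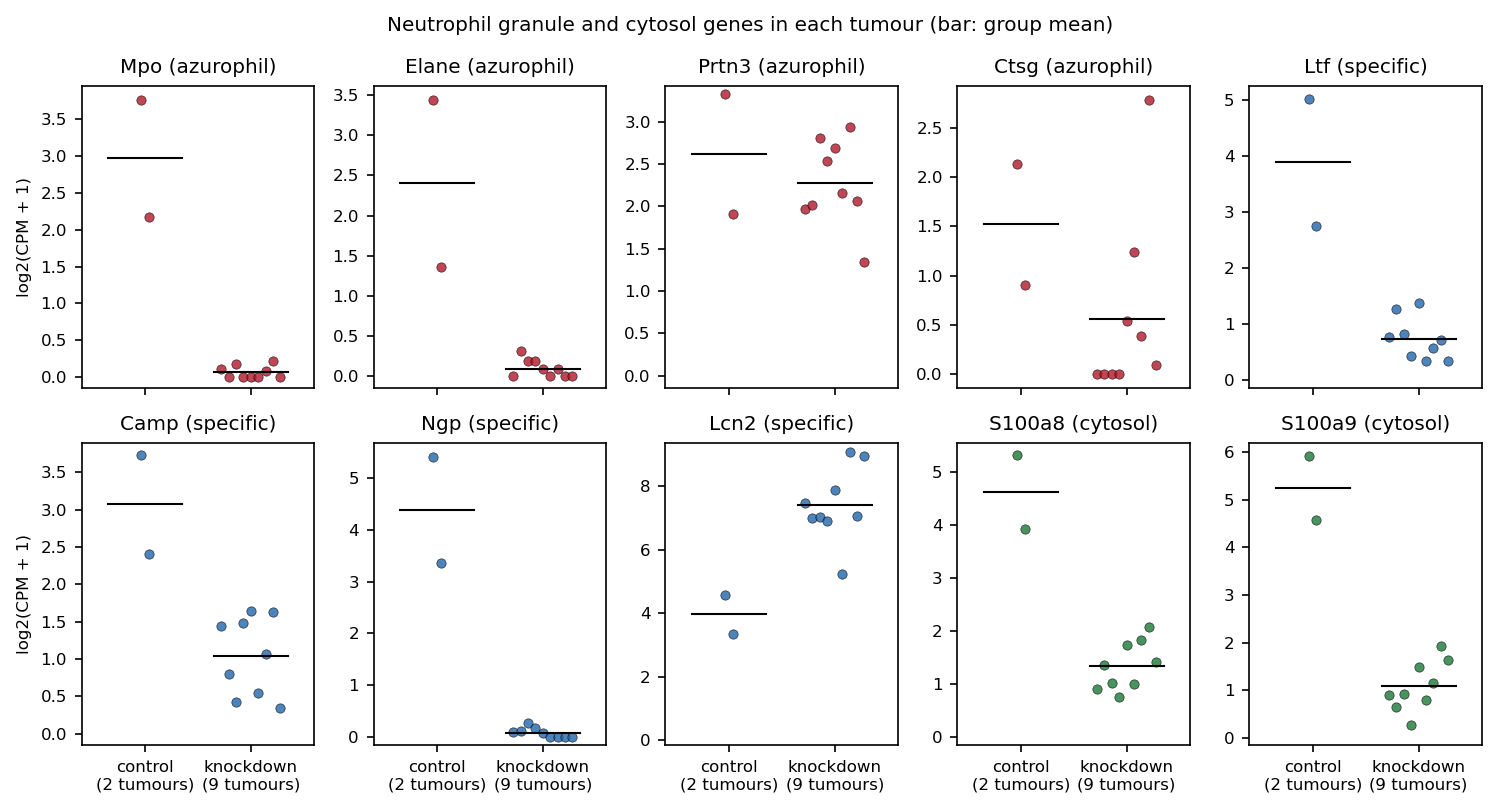
Level of each member in each tumour as log2(CPM + 1), 1 panel for each gene, with controls on the left and knockdown tumours on the right and a bar at the group mean. In 7 panels all knockdown points lie below both controls, in the Lcn2 panel they lie above, and in the Prtn3 and Ctsg panels they overlap.

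Set against each other per kilobase of exon, the members changed rank between the groups. In the controls the order of the mean levels was S100a9 (79.1 CPM per kb), S100a8 (38.2), Ngp (20.7), Camp (10.9), Lcn2 (6.15), Elane (5.80), Ltf (5.41), Prtn3 (3.39), Mpo (2.34) and Ctsg (2.06). The first 4 kept this order in each control, whereas from Lcn2 to Ltf the neighbours changed places between the controls. No 2 neighbouring means differed by more than the spread of a gene between the controls. All members were higher in control 1, so that this spread is not that of a difference between 2 genes. In controls 1 and 2 S100a9 stood at 114 and 44.0 CPM per kb and S100a8 at 56.0 and 20.4, and such differences were not tested. In the knockdown tumours Lcn2 led at 84.3 CPM per kb, and the next were S100a8 (2.39), S100a9 (2.39) and Prtn3 (2.38), which did not differ beyond their spread. Camp followed at 1.56 and Ctsg at 0.873, and Ltf (0.209), Elane (0.0731), Ngp (0.0517) and Mpo (0.0142) came last.

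The controls differed from each other in every member. All 10 were higher in control 1 than in control 2, by a median of 3.42 times and from 2.48 times (Lcn2) to 6.29 times (Elane), where 49.6% of all tested genes were higher in control 1 and the median ratio was 1.00. Summed over all 10 members the level was 241 CPM in control 1, 74.4 CPM in control 2 and between 44.3 and 555 CPM in the knockdown tumours, and without Lcn2 it was 218, 65.1 and between 5.91 and 18.0 CPM. Other neutrophil lists were mixed. Higher in control 1 were 5 of 20 surface genes and 0 of 6 NADPH oxidase genes, with median ratios of 0.66 and 0.46. So were 3 of 11 other azurophil and lysosomal genes and 5 of 12 other specific and gelatinase granule genes (medians 0.73 and 0.96). Chemoattractant, cytokine and adhesion genes gave 2 of 19 (median 0.51). Leaning towards control 1, like the members, were 8 of 11 granulopoiesis factors (median 1.52). The cytosol genes of the stefin A type and their companions did so too, with 5 of 8 (median 6.06). Most of these cytosol genes had too few counts to be tested. Markers of other myeloid cells gave 1 of 12 macrophage genes, 2 of 11 microglia genes and 3 of 13 mast cell genes, with median ratios of 0.47, 0.53 and 0.58. With 1 library on each side this is a description of 2 tumours.

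**Figure D4:**
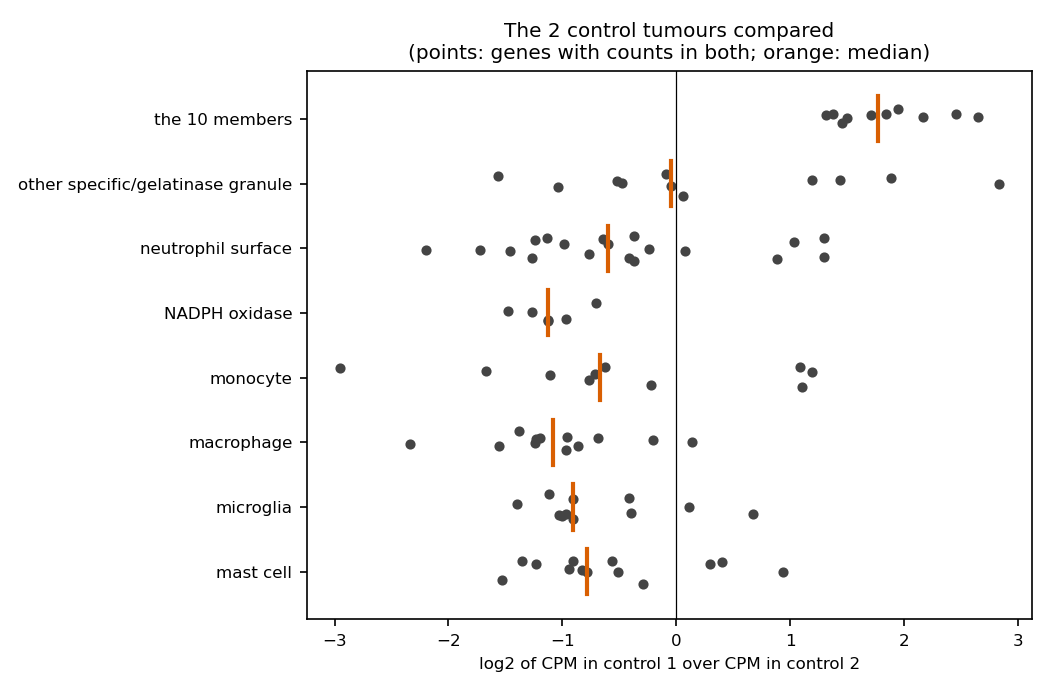
Log2 of the ratio of CPM in control 1 to CPM in control 2 on the x axis, 1 point for each gene with counts in both, by gene list, with the median of the list in orange. All 10 members lie to the right of 0, whereas the medians of the macrophage, microglia, mast cell and NADPH oxidase lists lie to the left.

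Within the 9 knockdown tumours, 5 members had enough counts to be followed. S100a8 and S100a9 varied together (r = 0.81, rho = 0.82 of log2(CPM + 1), n = 9). Lcn2 had r = 0.47 with S100a8 and r = 0.44 with S100a9, and the other 7 pairs lay between -0.27 and 0.29. Of 13050 genes compared, those closest to Lcn2 were Pim3 (r = 0.97), Camk1, Pitpnc1, Phactr3 and Plod1, and Pim3 kept r = 0.98 without tumours 7 and 9. Closest to S100a8 were Fdx1 (r = 0.96), Atp6v1h, Rab5a, Lgals3 and Slco4a1, and to S100a9 Tmem108 (r = 0.93), Atp6ap2, Lypla2, Aqp5 and Ap1s3. Prtn3 was closest to Fam188b (r = 0.93), Eif2b1, Mtdh, Klhl24 and Fbxo31, and Camp to Stxbp3a (r = 0.91), Scnm1, Cog3, Ldb1 and Stk40. The points share libraries and depth, and among so many genes high values of r arise in any case.

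The remaining Ezh2 level of a knockdown tumour gave no relation that passed a test with these 5 members. The strongest was Camp, with r = -0.60 (exact permutation p = 0.095, two-sided, adjusted p = 0.47 over 5 relations) and rho = -0.62 (exact permutation p = 0.086, adjusted p = 0.43), and r was -0.04 without the 2 tumours farthest from the median Ezh2 level. For Lcn2, r was 0.18 (exact permutation p = 0.63, adjusted p = 0.79) and rho 0.05 (exact permutation p = 0.91, adjusted p = 0.91). For S100a8, S100a9 and Prtn3, r was -0.42, -0.02 and -0.31 and rho -0.37, -0.08 and -0.30, with exact permutation p between 0.26 and 0.96 (adjusted 0.64 to 0.96).

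Genes that share the granules with the members were lower as well. Called genes made up 70% of the other specific and gelatinase granule genes tested and 62.5% of the other azurophil and lysosomal genes tested. Among all tested genes 23.3% were called in either direction and 13% were lower. Of 12 other specific and gelatinase granule genes, 10 had enough counts to be tested, and 7 were lower and 0 higher, with a median log2 fold change of -2.51. Adam8, a metalloprotease of the granule membrane, fell by 2.66 ± 0.24 on the log2 scale (SE; edgeR adjusted p = 5.7e-05), and Cd177, a surface and granule glycoprotein of neutrophils, by 5.44 ± 0.68 (edgeR adjusted p = 0.00038). Adam8 had a control mean of 94.3 CPM and was 0.97 times as high in control 1 as in control 2, unlike the members, whereas Cd177 was 7.13 times as high. Cd177 had a mean of 0.141 CPM in the knockdown tumours, under the floor, and passed the count filter only through the controls. Its fitted change is therefore a description only. The part of neutrophils in the Adam8 level was not tested. Of 11 other azurophil and lysosomal genes 8 were tested, and 5 were lower and 0 higher, median -0.95. They include Lyz2, lysozyme, with -1.75 ± 0.43 (edgeR adjusted p = 0.014), and Ctsc, the protease that activates the granule serine proteases, with -0.96 ± 0.18 (edgeR adjusted p = 0.0038), and both are also made by macrophages. Without control 2 the azurophil and lysosomal count was 1, and the specific and gelatinase count was between 6 and 8 whichever library was left out.

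Several other genes of maturing neutrophils had few counts. Ly6g, the usual surface marker of mouse neutrophils, had 3 and 2 counts in the controls and 0 in every knockdown tumour, and was not tested. Of 8 cytosol genes of the stefin A type and their companions 2 were tested, Padi4 (-1.71 ± 0.60, edgeR adjusted p = 0.058) and Anxa1 (-0.15 ± 0.22, adjusted p = 0.64), and 0 were called by edgeR, with 1 at an unadjusted p under 0.05 and 1 called by DESeq2. Without control 2 the lower count was 3, and with no filter on low counts it was 4. Among those not tested and named after their values were seen, BC100530 had 26 counts in the controls and 0 in the knockdown tumours, at least 39.1-fold lower against a floor of 3 counts over the group, and Stfa2 had 20 and 1. These stefin genes are near-identical copies of each other, so that their counts are uncertain. Cebpe, the factor required for specific granules, had 10 and 5 counts in the controls and 3 in all over the knockdown tumours.

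Surface receptors and the oxidase followed the same direction. Called genes made up 68.8% of the tested surface genes and 66.7% of the oxidase genes, against 23.3% of all tested genes. Of 20 neutrophil surface genes 16 were tested, with 11 lower and 0 higher, median -1.91. Trem1, an amplifying receptor of myeloid cells, had -1.95 ± 0.24 (edgeR adjusted p = 0.00039), and Itgb2, the common chain of the leukocyte integrins, -2.05 ± 0.30 (edgeR adjusted p = 0.00087). All 6 NADPH oxidase genes were tested, and 4 were lower and 0 higher, median -1.41, among them Cybb (-2.52 ± 0.48, edgeR adjusted p = 0.0038) and Ncf4 (-1.84 ± 0.27, edgeR adjusted p = 0.00092). Macrophages express most of these genes too. Without control 2 the counts were 4 surface genes and 1 oxidase gene.

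The lists of signals that call and that mature neutrophils gave unlike counts. Called genes made up 47.4% of the chemoattractant, cytokine and adhesion genes, against 23.3% of all tested genes. For the tested granulopoiesis factors the share was 22.2%, near that of all tested genes. Of 19 chemoattractant, cytokine and adhesion genes 9 were lower and 0 higher, median -1.37, with C5ar1, the receptor of complement C5a, at -1.51 ± 0.20 (edgeR adjusted p = 0.00063) and Il1b at -2.67 ± 0.40 (edgeR adjusted p = 0.00098). Without control 2 the lower count was 1, and without tumour 2 there was 1 higher call. Cxcl1, a main neutrophil chemokine, named after its values were seen, stood at 0.615 and 0.689 CPM in the controls and between 1.4 and 17.7 CPM in the knockdown tumours, all above both controls, with 3.15 ± 1.16 (edgeR adjusted p = 0.068). Of 9 tested granulopoiesis factors 1 was higher (Cebpb, 0.94 ± 0.30, edgeR adjusted p = 0.042) and 1 lower (Klf4, -1.63 ± 0.50, edgeR adjusted p = 0.035), median 0.12. Cebpb did not pass with either control left out, nor without knockdown tumour 1, 2, 4, 7 or 8, and the lower count was 0 without control 1 or tumour 2.

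Genes around Lcn2 and the other members' activities gave mixed counts. Called genes made up 26.7% of the inducers of Lcn2, 40% of the receptors and 11.1% of the tested protease inhibitors, against 23.3% of all tested genes. Of 15 genes that pass on or restrain the NF-kB, interleukin and C/EBP signals known to induce Lcn2, 2 were higher, the interleukin 1 receptor Il1r1 (1.81 ± 0.42, edgeR adjusted p = 0.010) and Cebpb, and 2 lower, Nfkb1 (-0.45 ± 0.10, edgeR adjusted p = 0.0066) and Il6ra (-1.29 ± 0.33, edgeR adjusted p = 0.017). Of 10 receptors of the members 1 was higher, the scavenger receptor Cd36 (4.58 ± 1.51, edgeR adjusted p = 0.047), and 3 lower, among them Lrp2, an endocytic receptor of lipocalin 2 (-2.65 ± 0.37, edgeR adjusted p = 0.00068), and the formyl peptide receptor Fpr2 (-3.19 ± 0.62, edgeR adjusted p = 0.0042). Without tumour 3 there were 4 higher inducers. The higher counts of both lists were 0 with either control left out, the receptor one also without tumour 1, 2, 5 or 8, and the lower counts were 0 inducers without control 1 and 1 receptor without control 2. Of 9 tested inhibitors of the granule proteases 0 were higher and 1 lower, Serpina3g (-2.27 ± 0.50, edgeR adjusted p = 0.0080), which was lost without control 2. Of 10 other S100 genes 0 passed by edgeR, with 0 at an unadjusted p under 0.05 and 0 by DESeq2, and their median was 0.18, among them S100a11 (-0.56 ± 0.29, adjusted p = 0.18) and S100a4 (-0.70 ± 0.45, adjusted p = 0.28).

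**Figure D5:**
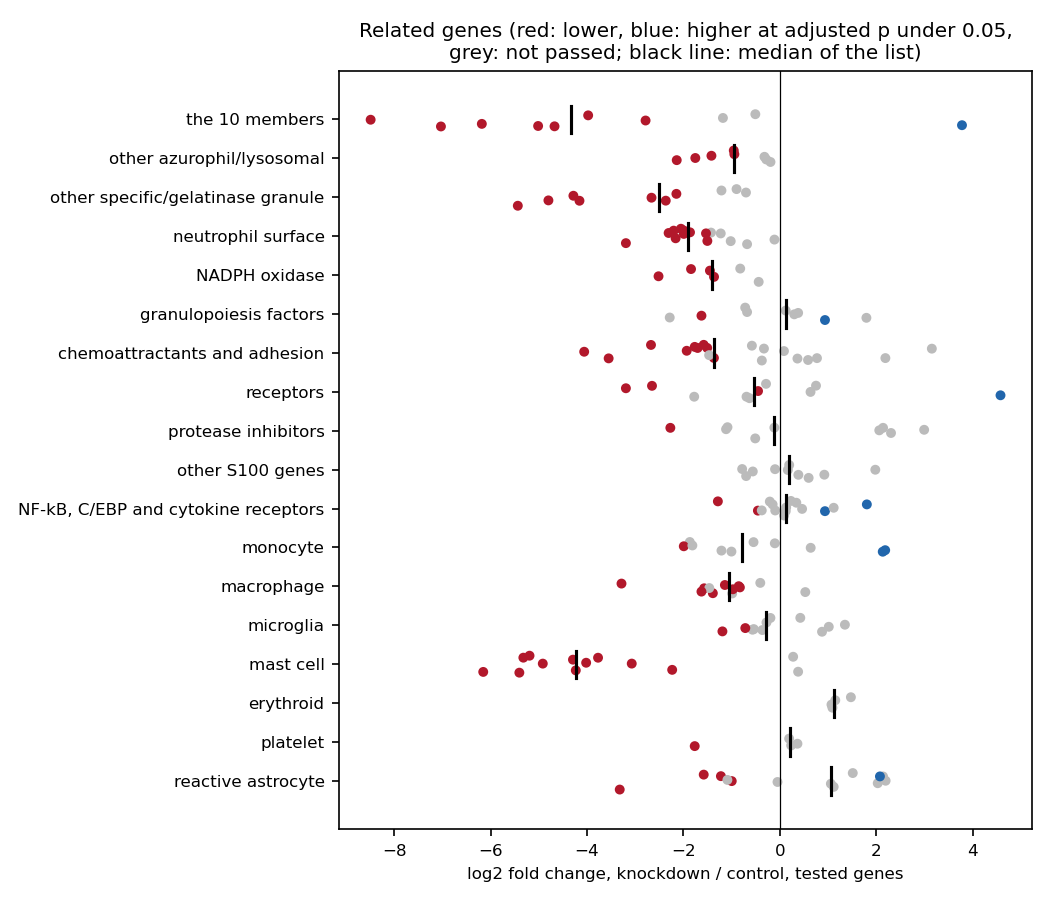
Log2 fold change, knockdown over control, of each tested gene on the x axis, by gene list, with red for lower and blue for higher at an adjusted p under 0.05, grey for not passed and a black line at the median of the list. The specific and gelatinase granule, neutrophil surface and mast cell lists lie mostly left of 0, and the other S100 and granulopoiesis lists centre near it.

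Markers of other cells of the tumour moved beside the members. Called genes made up 84.6% of the mast cell, 66.7% of the macrophage and 30% of the monocyte genes, against 23.3% of all tested genes. Of 13 mast cell genes 11 were lower and 0 higher, median -4.23, and their summed level was 236 and 314 CPM in the controls and between 16 and 77.1 CPM in the knockdown tumours. Examples were Cma2 (-6.15 ± 0.73, edgeR adjusted p = 0.00030) and Mcpt1 (-5.32 ± 0.75, edgeR adjusted p = 0.00076). Cma2, at a mean of 0.0333 CPM in the knockdown tumours, was under the floor and passed the count filter only through the controls. Its fitted change is a description only. Of 12 macrophage genes 8 were lower and 0 higher, median -1.06, with sums of 985 and 2544 CPM against 368 to 925 CPM, among them Msr1 (-1.57 ± 0.19, edgeR adjusted p = 0.00030) and Cd74 (-3.29 ± 0.51, edgeR adjusted p = 0.0013). Without control 2 the lower counts were 5 mast cell and 2 macrophage genes, and without control 1 they were 7 and 7. The macrophage count was 5 without tumour 2 or tumour 5. Of 11 microglia genes 2 were lower (Tmem119, -1.19 ± 0.38, edgeR adjusted p = 0.041, and Sall1, -0.72 ± 0.24, edgeR adjusted p = 0.048) and 0 higher, and their sums, 347 and 424 CPM in the controls and 266 to 462 CPM in the knockdown tumours, overlapped. The share of microglia genes called was 18.2%, against 23.3% of all tested genes. The microglia count was 0 without control 1 or any of tumours 1, 2, 4, 5, 6 and 8. Of 10 monocyte genes 2 were higher (Vcan and Plac8), while the median of the list was -0.77. Both of these calls depended on control 2. The sums of the list were 8468 and 9754 CPM in the controls and 3622 to 9217 CPM in the knockdown tumours. Vcan alone averaged 176 CPM in the controls and 803 CPM in the knockdown tumours. The part of monocytes in these sums was not tested, nor was the part of any of these cell types in the changes of the members.

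Red cell genes, which mark blood in a sample, did not pass the test in either direction. Of 4 tested erythroid genes 0 passed by edgeR, with 1 at an unadjusted p under 0.05 and 0 by DESeq2, and their median was 1.12. The summed erythroid level was 5.69 and 12.8 CPM in the controls and between 7.45 and 33.2 CPM in the knockdown tumours, so that the groups overlapped. Hbb-b1 had 1.48 ± 0.67 (adjusted p = 0.13) and Hba-a1 1.07 ± 0.54 (adjusted p = 0.17), both from near-identical copies. Of 4 tested platelet genes 1 was lower, Ppbp (-1.77 ± 0.55, edgeR adjusted p = 0.036), and 0 higher, and that call was lost with either control left out, and without tumour 1, 2 or 5. Of 13 reactive astrocyte genes, the other textbook source of Lcn2 in brain, 1 was higher, Hspb1 (2.08 ± 0.47, edgeR adjusted p = 0.0094), and 4 lower, among them Cxcl10 (-3.32 ± 0.38, edgeR adjusted p = 0.00027) and Cd44 (-1.22 ± 0.22, edgeR adjusted p = 0.0031), and the median was 1.06. DESeq2 called 5 of them higher and 5 lower. Fewer were called lower by edgeR without control 1, and at most 3 were called higher, without tumour 3. Their summed level was 6441 and 6383 CPM in the controls and between 2857 and 4849 CPM in the knockdown tumours. Called genes made up 38.5% of this list and 25% of the tested platelet genes, against 23.3% of all tested genes.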

How the data were processed

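RNA of 11 mouse gliomas was sequenced after TRIzol extraction and TruSeq library preparation, per the labels' protocols. The authors deposited 1 table of whole-number read counts per Ensembl gene on mm9. Per the submitters' processing notes TopHat 1.4.0 and HTSeq were used; the settings, and whether strand was used, are not given in these sources. Groups and replicate numbers came from the sample titles, and the labels do not say that tumours came from separate cell preparations, and a p-value here therefore covers only the spread of these libraries, part of which may be technical. No pair of replicates differed by as little as sampling noise.

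In R 4.3.3, edgeR 4.0.16 (filterByExpr, TMM, glmQLFit, glmQLFTest) compared knockdown with control over all 11 libraries, with Benjamini-Hochberg adjustment over 16241 genes and a threshold of 0.05. The SE is the log2 fold change over the square root of F. CPM was computed from the deposited counts, exon lengths came from GENCODE M21 by Ensembl identifier, and 250-base upstream windows from RefSeq on GRCm38.p6. Alternatives were RLE size factors, DESeq2 1.42.0, limma-voom (limma 3.58.1), no count filter, each library left out and a replicate block. The fit was tested on simulated data.

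The members and the gene lists, covering other granule, surface, oxidase and signalling genes and markers of other cells, were chosen with earlier results of these data known. Of 273 symbols 265 were found, and 1 call among the monocyte genes is not reported here. From each list the text names up to 4 genes by ascending p, at most 2 in each direction among those called, or 2 uncalled ones if the list has no call; the genes nearest in pattern to a member are the 5 with the highest r, among members with at least 10 counts in at least 5 knockdown tumours.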

Additional observations from a re-analysis of the deposited data

Results flagged for a closer look

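Ctsg in knockdown tumour 8, at 5.93 CPM, stood far above the other 8 knockdown tumours, of which the next, tumour 6, had 1.36 CPM. The gap to its nearest neighbour, divided by the range of the group, was above Dixon's critical value at 95%. For normally distributed values chance alone flags about 1 in 20 groups, and each of the 10 members was examined in the knockdown group. Ctsg, with 0 counts in knockdown tumours 1 to 4, is not so distributed, and the rate for such values was not tested.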

How the results depend on the processing

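Mpo, Ngp and S100a9 kept their direction and their call in 18 of 18 alternatives. The limit is the control group of 2 libraries, and with 1 control left its spread is assumed to equal that of the knockdown tumours. Leaving out 1 library at a time, the members called higher ran from 0 to 1, and the log2 fold change from -3.35 to -1.85 for Camp, 3.26 to 4.57 for Lcn2, -1.13 to 0.58 for Prtn3, -2.98 to 0.08 for Ctsg, -7.68 to -5.85 for Mpo, -6.98 to -4.33 for Elane, -5.44 to -2.99 for Ltf, -9.20 to -7.03 for Ngp, -4.53 to -3.08 for S100a8 and -5.55 to -4.18 for S100a9. For the 7 members that fell, the weaker end was without control 1 and the stronger without control 2. Prtn3 turned to 0.58 and Ctsg to 0.080 without control 1, the higher control in both, neither passing. The members called lower ran from 6 to 7. Genes called over the whole table were 903 lower and 387 higher without control 1, and 1192 and 558 without control 2, against 2116 and 1674. The replicate numbers 1 and 2, present in both groups, are not stated to pair tumours, and their deviations had r = -0.15 and 0.01. Deviations of the 2 controls are exact opposites of each other, so these values cannot show whether tumours were paired. With the replicate block over those 4 libraries 4 members were called lower, and Elane (-5.08, adjusted p = 0.11), Ltf (-3.74, adjusted p = 0.098) and S100a8 (-4.31, adjusted p = 0.054) did not pass; the block called 398 genes lower and 336 higher over the table. The same 4 libraries without the block, added after seeing the data, gave 1348 and 1117, with Elane at -5.48 (adjusted p = 0.061) and Camp at -2.76 (adjusted p = 0.058). Of 792 list counts over the alternatives 644 stayed within 1.5 times and 148 did not, among them 5 reactive astrocyte genes higher (against 1) and 2 chemoattractant genes higher (against 0) by DESeq2. Values of 0 to 3 counts in a library are at the floor of this depth.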

Other observations

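Lists outside the neutrophil and myeloid account gave the following counts. Of 5 tested lymphocyte and natural killer genes 1 was higher, Lck (1.71 ± 0.32, edgeR adjusted p = 0.0033), and 2 lower, Klrb1c (-3.67 ± 0.55, edgeR adjusted p = 0.0010) and Cd4 (-2.72 ± 0.54, edgeR adjusted p = 0.0049). Klrb1c had a mean of 0.188 CPM in the knockdown tumours, near the floor, and passed the count filter only through the controls. Its fitted change is a description only. Of 11 neural progenitor and glioma genes 2 were higher, Egfr (0.96 ± 0.24, edgeR adjusted p = 0.015) and Pdgfra (1.21 ± 0.34, edgeR adjusted p = 0.024), and 4 lower, among them Nes (-1.88 ± 0.25, edgeR adjusted p = 0.00057) and Olig2 (-2.71 ± 0.60, edgeR adjusted p = 0.0085). Of 7 tested epithelial and choroid plexus genes 1 was higher, Folr1 (3.82 ± 1.09, edgeR adjusted p = 0.026), and 0 lower. Folr1 had a control mean of 0.132 CPM and passed the count filter only through the knockdown tumours, so that its fitted change is a description only. Called genes made up 60% of the tested lymphocyte, 54.5% of the glioma and 14.3% of the tested epithelial genes, against 23.3% of all tested genes. The 1 tested eosinophil gene, Ear2, had -0.84 ± 1.04 (adjusted p = 0.59). With either control left out the higher counts of the glioma and epithelial lists were 0, and without control 2 the lower counts were 2 glioma genes and 1 lymphocyte gene.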
